A study of Mus musculus with 3 samples.

Results

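The enzymes and regulators of polyamine synthesis, and the enzymes that use a polyamine to modify a translation factor, were followed through activation of mouse CD4+ T cells and after loss of IFT20, an intraflagellar transport protein. The set holds 10 genes of the 31053 in the feature table of the single-cell RNA-seq libraries, taken from a fixed list of symbols: *Odc1*, *Srm*, *Sms*, *Amd1*, *Oaz1*, *Oaz2*, *Azin1*, *Sat1*, *Dhps* and *Dohh*. All 10 were found by symbol, and all 10 had at least 10 unique molecular identifiers (UMIs, tags that count captured RNA molecules) in each comparison. There were 3 libraries, 1 per condition, each from spleen CD4+ T cells of C57BL/6 mice that had been enriched for naïve cells and then sorted as 7AAD-CD3+CD4+. Unstimulated WT cells came from *Ift20* f/f mice without Cre and were kept in DPBS (0 h). Stimulated WT cells were of the same genotype and received antibodies against CD3 and CD28, each at 1 μg/mL, for 24 h. Stimulated IFT20-KO cells came from *Ift20* f/f CD4 cre mice under the same stimulation, so every library carries the floxed allele and only the KO library carries Cre. That Cre is driven by *Cd4* and deletes exons 2 and 3 in CD4+ T cells. Cre driven by *Cd4* is known to act during T cell development, before the cells are taken for stimulation. The study used male mice of 5 to 10 weeks of age, and the number of animals behind each library is not given in the sources used here.

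Polyamines are small positively charged molecules that bind nucleic acids and that growing cells need in quantity. *Odc1* makes putrescine from ornithine, *Srm* and *Sms* extend it to spermidine and spermine with aminopropyl groups that *Amd1* supplies, and *Sat1* acetylates spermidine and spermine for breakdown or export. Antizymes (*Oaz1*, *Oaz2*) bind ornithine decarboxylase and send it to the proteasome, the antizyme inhibitor (*Azin1*) sequesters them, and *Dhps* and *Dohh* convert a lysine of eIF5A into hypusine with spermidine as the donor. The pathway is known to be switched on when T cells leave quiescence, with MYC as a known regulator of *Odc1*.

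With 1 library per condition there was no replicate and no test, and every interval below is a 95% interval of counting error only. After the study's cell filter (more than 200 genes, under 15% mitochondrial UMIs), 8031, 9903 and 13920 cells were kept for unstimulated WT, stimulated WT and IFT20-KO, with 37133949, 116979076 and 106435143 UMIs. Median depth was uneven, at 4627, 12167 and 5014.5 UMIs per cell. The T cell markers *Cd3d*, *Cd3e*, *Cd3g*, *Cd4* and *Lck* were all present, with 99.4% to 99.9% of cells holding a UMI of at least 1 of them. All 3 erythroid and both platelet markers had 0 UMIs in both WT libraries, and *Lyz2* had at most 1 UMI in any library. The 3 natural killer cell markers together had 17, 1 and 3 UMIs in the 3 libraries. All 3 had UMIs in unstimulated WT, where *Klrb1c* was highest and *Ncr1* lowest. Of the 5 myeloid markers 4 or 5 had a UMI, at a summed 1.99, 2.90 and 3.67 CPM and in 0.809%, 3.24% and 2.63% of cells, mostly *Cd68*. Both CD8 markers had UMIs, at a summed 28.7, 9.16 and 11.5 CPM, nearly all *Cd8b1*, with a UMI in 10.9%, 8.13% and 6.95% of cells, while *Cd8a* was at 0.16, 0.12 and 0.29 CPM. The part of such cells in the results was not tested. From 114 to 197 barcodes were shared between pairs of libraries, at most 1.99% of the cells of either. *Ift20* itself was at 64.4, 76.0 and 6.60 UMIs per 1000000 UMIs (CPM), 11.5-fold lower in KO than in stimulated WT, although the counts do not show which exons the tags came from. *Sms* and *Sat1* lie on the X chromosome, and *Xist* had 0, 0 and 1 UMI, the level of male cells, in the 3 libraries.

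The stimulated and unstimulated WT libraries were compared first, to see which steps of the pathway were higher in activated cells. The unstimulated cells were taken at 0 h and the stimulated cells after 24 h, with no unstimulated library at 24 h. Antibody stimulation, time in culture and library therefore cannot be told apart, and ratios for stimulation name this comparison as a whole. *Odc1* and *Srm* had the largest ratios of the set, and the 4 synthetic enzymes were spread widely: *Odc1* and *Srm* were 14.3-fold and 6.27-fold higher in stimulated WT, *Sms* 2.04-fold, and *Amd1* slightly lower. Of the 10 genes, 3 were higher by at least 2-fold and 0 were lower by that much, where 19.3% of the 13297 genes with at least 10 UMIs were higher and 23.0% were lower. The median log2 ratio of the 10 genes was 0.31, and that of all genes was -0.089. The summed level of the 4 synthetic enzymes was 196 CPM in unstimulated WT, 982 CPM in stimulated WT and 871 CPM in IFT20-KO.

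**Figure D1:**
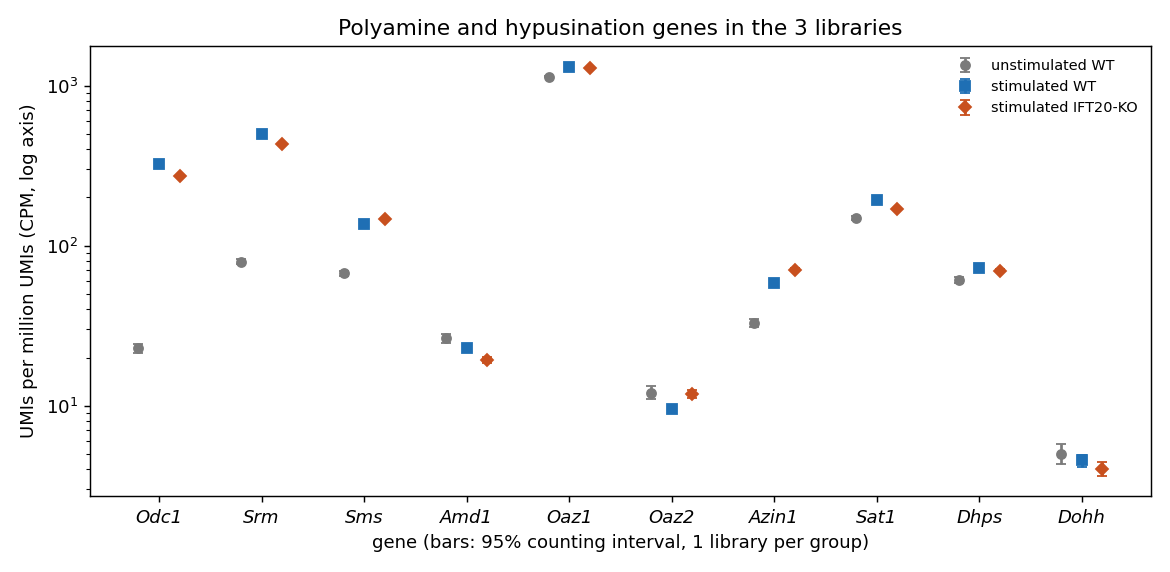
Level of each gene (CPM, log axis) in the 3 libraries; points are library sums and bars are 95% counting intervals, with 1 library per group. *Odc1*, *Srm* and *Sms* separate the unstimulated library from both stimulated ones, whereas *Oaz1*, the most abundant gene of the set, lies between 1139 and 1311 CPM in all 3.

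*Odc1*, ornithine decarboxylase, the entry enzyme, was at 22.8 CPM in unstimulated WT, 326 CPM in stimulated WT and 271 CPM in IFT20-KO. The unstimulated library was far below both stimulated ones. The log2 ratio of stimulated to unstimulated WT was 3.84 (3.74 to 3.94), above the ratios of 98.3% of all genes. *Odc1* UMIs were present in 9.19% (8.57% to 9.84%) of unstimulated cells, 74.6% (73.7% to 75.5%) of stimulated WT cells and 64.1% (63.3% to 64.9%) of IFT20-KO cells. Depth affects such shares, and in cells thinned to 1400 UMIs they were 3.04%, 30.8% and 27.6%. Cells below 1400 UMIs were left out of all thinned values, which removed 801 unstimulated WT, 421 stimulated WT and 0 IFT20-KO cells. For comparison, a UMI of any of the B cell markers *Cd79a*, *Cd79b* and *Ms4a1*, which the sort should remove, was present in 0.959% to 1.42% of unthinned cells. A UMI of either CD8 marker was present in 10.9%, 8.13% and 6.95%, in unstimulated cells above the share of *Odc1*. Nearly all of those UMIs were *Cd8b1*, with *Cd8a* at 0.16 CPM in unstimulated WT. Whether they came from CD8 T cells, which the sort should remove, was not tested. A cell with *Odc1* held a mean of 1.15 UMIs of it without stimulation and 5.16 with stimulation, and the highest cell held 8 and 72.

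*Srm*, spermidine synthase, was at 79.3 CPM in unstimulated WT, 497 CPM in stimulated WT and 434 CPM in IFT20-KO. Its log2 ratio for stimulation was 2.65 (2.59 to 2.70), and its share of thinned cells with a UMI was 9.39%, 40.9% and 36.9%. *Sms*, spermine synthase, was at 67.1, 137 and 146 CPM, giving a log2 ratio of 1.03 (0.97 to 1.09) whose interval includes the 2-fold limit. Both synthases were therefore higher with stimulation, but by unequal amounts. There were 1.18 (1.12 to 1.246) UMIs of *Srm* for each UMI of *Sms* before stimulation and 3.62 (3.56 to 3.69) after it. In the KO library this ratio was 2.96 (2.91 to 3.02). The call of *Sms* did not hold, since its ratio was below the limit under 5 of 9 alternative ways of processing, with a range of 0.74 to 2.38.

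*Amd1*, S-adenosylmethionine decarboxylase, was the synthetic enzyme that was not higher, at 26.3 CPM in unstimulated WT, 22.9 CPM in stimulated WT and 19.3 CPM in IFT20-KO. Its log2 ratio for stimulation was -0.20 (-0.30 to -0.091), close to the median of all genes. This level is uncertain because near-identical copies exist. Of the distinct stretches of 50 bases in the annotated *Amd1* transcripts, 78.1% also occur in a transcript of another gene, and 76.7% in that of *Amd2*, and reads that match several genes equally are not counted by the pipeline used. *Amd2* had 86, 281 and 258 UMIs. The same share was 24.3% for *Odc1*, 17.5% for *Sms*, 21.0% for *Oaz1*, 2.01% for *Srm*, and 0 for *Azin1* and *Dhps*. For *Odc1*, *Sms*, *Oaz1* and *Srm* the other gene sharing most stretches was a processed pseudogene. Those of *Sms* and *Oaz1* are not in the feature table, whereas *Amd2* is.

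**Figure D2:**
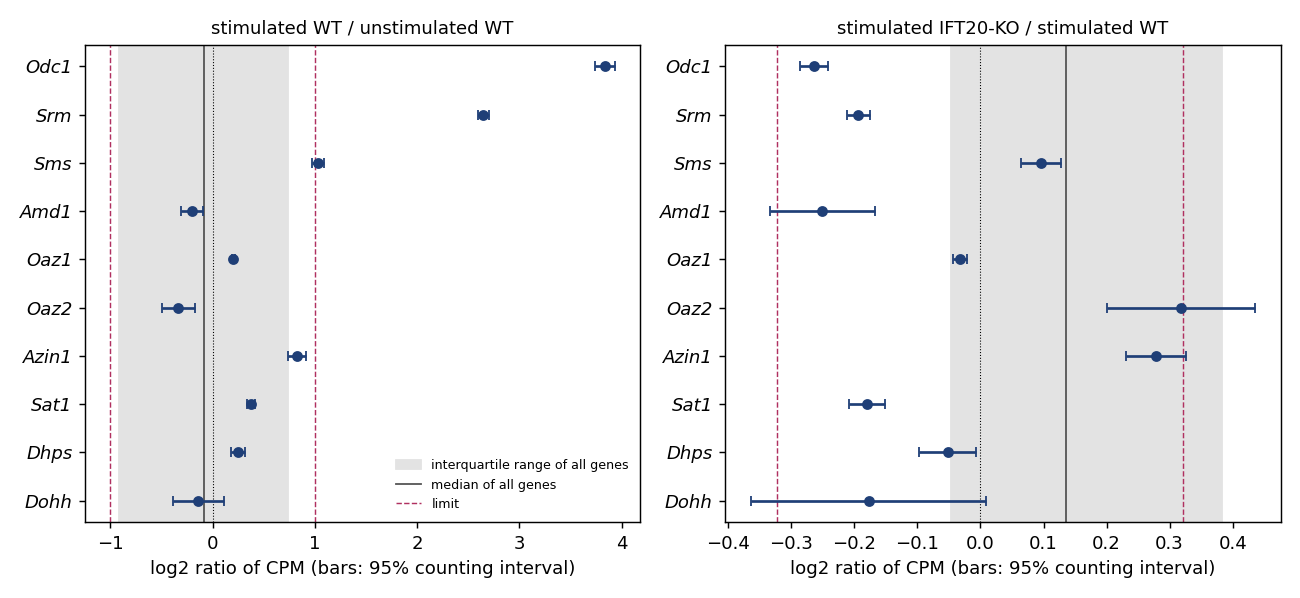
Log2 ratio of CPM of each gene, on the left for stimulated over unstimulated WT and on the right for stimulated IFT20-KO over stimulated WT; bars are 95% counting intervals, the grey band is the interquartile range of all genes and the dashed lines are the limits, 1 on the left and 0.322 on the right. On the left *Odc1*, *Srm* and *Sms* reach the limit at 3.84, 2.65 and 1.03, and on the right no gene of the set passes the limit.

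Promoter windows are shown for *Odc1*, which had the largest ratio, and for the genes whose windows hold the letters CACGTG, the E-box that MYC is known to bind, since *Myc* was also higher with stimulation. The windows run from 250 bases before to 50 bases after a start site in RefSeq (GRCm38.p6), and 8 of the 10 genes matched, with 9 windows. *Srm* and *Azin1* were not among them. The motif was searched on both strands, which for this palindrome are the same, and is in capitals. The *Odc1* window (chr12:17544623-17544922, plus strand) does not hold it. The *Sms* window of the upstream start (chrX:157492238-157492537, minus strand) holds it 196 bases before that start. The *Dohh* window (chr10:81384184-81384483, plus strand) holds it just after the start.
Odc1: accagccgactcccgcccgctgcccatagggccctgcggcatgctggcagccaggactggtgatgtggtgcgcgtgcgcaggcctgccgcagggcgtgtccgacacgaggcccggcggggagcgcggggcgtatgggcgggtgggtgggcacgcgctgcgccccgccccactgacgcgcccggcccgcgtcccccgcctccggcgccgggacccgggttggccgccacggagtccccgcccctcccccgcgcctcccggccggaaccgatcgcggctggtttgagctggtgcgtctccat
Sms: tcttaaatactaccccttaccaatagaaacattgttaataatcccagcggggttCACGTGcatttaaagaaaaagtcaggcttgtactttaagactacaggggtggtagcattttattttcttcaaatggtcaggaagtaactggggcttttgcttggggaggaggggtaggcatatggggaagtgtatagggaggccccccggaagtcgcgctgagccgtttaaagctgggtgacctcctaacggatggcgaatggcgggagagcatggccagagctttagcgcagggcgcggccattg
Dohh: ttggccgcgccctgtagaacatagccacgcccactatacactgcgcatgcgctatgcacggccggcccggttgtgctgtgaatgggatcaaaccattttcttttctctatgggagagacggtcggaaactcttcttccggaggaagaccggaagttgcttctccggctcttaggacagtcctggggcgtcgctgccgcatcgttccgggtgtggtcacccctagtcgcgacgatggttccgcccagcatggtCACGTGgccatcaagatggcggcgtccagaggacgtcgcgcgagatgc
The letters occurred in 2 of the 9 windows, and in 7.15% of all 32851 promoter windows of that length. *Odc1*, with a ratio of 3.84, lacks them in its window. *Sms*, at 1.03, holds them in 1 of its 2 windows, and *Dohh*, at -0.14, holds them. No window was available for *Srm*, and sequence outside the windows was not searched. Whether the motif relates to the ratios was not tested.

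The antizymes, which oppose ornithine decarboxylase, were not higher to the same extent. *Oaz1* was at 1139 CPM in unstimulated WT, 1311 CPM in stimulated WT and 1282 CPM in IFT20-KO, a log2 ratio for stimulation of 0.20 (0.19 to 0.22). It was the most widely detected gene of the set, with a UMI in 80.4%, 78.3% and 77.3% of thinned cells. *Oaz2* was at 12.04, 9.53 and 11.9 CPM, with a log2 ratio for stimulation of -0.34 (-0.50 to -0.18). Antizyme is made only when ribosomes shift frame at a stop codon, which polyamines promote, so its RNA level does not give its protein level. That stop codon lies in exonic sequence of *Oaz1* (transcript Oaz1-205 of GENCODE M21, GRCm38, chr10:80828280-80828309, plus strand). The last sense codon before the shift and the stop are in capitals. The first capital lies within the annotated coding sequence, 74 bases from its start, which is not a whole number of codons.
Oaz1: cctcggtggtgcTCCTGAtgtccctcaccc

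*Azin1*, the antizyme inhibitor, was at 32.9 CPM in unstimulated WT, 58.2 CPM in stimulated WT and 70.6 CPM in IFT20-KO, and it was the member with the largest ratio for stimulation after *Sms*. Its log2 ratio was 0.83 (0.74 to 0.91), below the 2-fold limit, but 1.10 and past it in cells thinned to 1400 UMIs. The balance of the RNAs moved mainly with *Odc1*. There were 49.96 (46.7 to 53.5) UMIs of *Oaz1* for each UMI of *Odc1* in unstimulated WT, 4.03 (3.98 to 4.07) in stimulated WT and 4.73 (4.67 to 4.79) in IFT20-KO. *Azin1* exceeded *Odc1* before stimulation, at 1.44 (1.32 to 1.57) UMIs for each, and was below it at 0.179 (0.174 to 0.183) and 0.260 (0.254 to 0.267) in the stimulated libraries. These ratios compare counts of end-tagged molecules, which do not scale with transcript length, but the efficiency of capture of each gene is unknown.

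*Sat1*, the acetyltransferase of the breakdown route, was at 149 CPM in unstimulated WT, 193 CPM in stimulated WT and 171 CPM in IFT20-KO. Its log2 ratio for stimulation was 0.37 (0.33 to 0.42). The order of the *Sat1* and *Odc1* counts was reversed, with 6.53 (6.08 to 7.03) UMIs of *Sat1* per UMI of *Odc1* without stimulation and 0.593 (0.583 to 0.603) with it.

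The WT libraries differed in depth, so the stimulation ratios were also taken within ranges of UMIs per cell. *Odc1* was at 2.83 (2.34 to 3.36) in cells of 1400 to 3000 UMIs, 3.31 (3.09 to 3.52) at 3000 to 6000, 2.86 (2.69 to 3.04) at 6000 to 12000 and 3.68 (3.11 to 4.32) at 12000 to 24000. *Srm* was at 1.51 (1.19 to 1.85), 2.02 (1.86 to 2.17), 1.99 (1.89 to 2.09) and 2.22 (1.93 to 2.52) in the same ranges. Both were past the 2-fold limit and below their whole-library ratios in all 4 ranges. *Oaz1* changed sign, at -1.15 (-1.25 to -1.05) and -0.20 (-0.27 to -0.12) in the ranges below 6000 UMIs and 0.25 (0.22 to 0.28) and 0.23 (0.14 to 0.32) above. *Azin1* was at 1.53 (1.12 to 1.96) in the shallowest range and 0.53 (0.35 to 0.72) at 6000 to 12000. The shallowest range held 534 unstimulated and 1726 stimulated cells, and the deepest of these held 60 unstimulated cells. The range of 3000 to 6000 UMIs held 5329 unstimulated and 339 stimulated cells. In the shallowest range the median mitochondrial share was 2.64% in unstimulated and 10.6% in stimulated cells, so cell quality was not alike there. Its part in these ratios was not tested.

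The hypusination enzymes were little different. *Dhps*, deoxyhypusine synthase, was at 60.9, 72.1 and 69.6 CPM, with a log2 ratio for stimulation of 0.24 (0.18 to 0.31). *Dohh*, deoxyhypusine hydroxylase, which completes the modification, was the least abundant gene of the set at 5.01, 4.55 and 4.02 CPM, and its log2 ratio of -0.14 (-0.38 to 0.11) included 0. Their substrate was not flat: *Eif5a* was at 643, 2442 and 2153 CPM, giving a log2 ratio of 1.92 (1.91 to 1.94). There were 10.6 (10.1 to 11.04) UMIs of *Eif5a* per UMI of *Dhps* before stimulation and 33.9 (33.1 to 34.6) after it. *Dohh* overlaps *Gm48551* on its own strand, with 45.3% of its 50-base stretches shared with another gene. Its level is therefore uncertain where reads could not be assigned. *Dhps* overlaps *Wdr83* on the opposite strand, and 0 of its 50-base stretches were shared. Whether that overlap affects its level was not tested.

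The wider pathway was followed with a list of 28 genes, of which 22 had at least 10 UMIs in the comparison of the WT libraries. In it 5 were higher by at least 2-fold and 0 were lower by that much, with a median log2 ratio of 0.36, against the 19.3% and 23.0% of all genes given above. *Myc* was at 75.6, 264 and 220 CPM, giving a log2 ratio of 1.81 (1.75 to 1.86). *Slc3a2*, the heavy chain of amino acid transporters, was at 78.9, 209 and 200 CPM, giving a log2 ratio of 1.40 (1.35 to 1.46). *Aldh18a1*, which makes the proline and ornithine precursor from glutamate, had the same rounded ratio of 1.40 (1.30 to 1.501), from 24.7 CPM to 65.2 CPM. *Mtap*, which salvages the methylthioadenosine left over by both synthases, was at 51.6, 116 and 112 CPM, giving a log2 ratio of 1.17 (1.10 to 1.24), and *Eif5a* completes the group. Arginase was barely detected, with 0 UMIs of *Arg1* in all 3 libraries, which allows up to 3 UMIs in each, and 2, 2 and 5 UMIs of *Arg2*. *Oat*, which links ornithine to glutamate, was at 55.3, 70.6 and 69.4 CPM. The spermine oxidase *Smox* and the acetylpolyamine oxidase *Paox* had log2 ratios of -0.013 (-0.19 to 0.17) and -0.093 (-0.25 to 0.072), while the polyamine exporter of lysosomes *Atp13a2* was at -0.69 (-0.83 to -0.54).

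IFT20-KO was then compared with WT under the same stimulation, to see whether the set differed without IFT20. No gene of the set passed a log2 ratio of 0.322 in either direction, a limit passed upward by 30.1% and downward by 6.30% of the 13504 genes with at least 10 UMIs. The median log2 ratio of the 10 genes was -0.11, against 0.14 for all genes, and 8 of the 10 were below the median of all genes. The largest negative ratios were those of *Odc1*, at -0.26 (-0.29 to -0.24), *Amd1*, at -0.25 (-0.33 to -0.17), and *Srm*, at -0.19 (-0.21 to -0.18). *Sat1* was at -0.18 (-0.21 to -0.15), *Dhps* at -0.052 (-0.097 to -0.0066), *Oaz1* at -0.033 (-0.043 to -0.022), and *Dohh* at -0.18 with an interval that included 0. On the other side were *Oaz2* at 0.32 (0.20 to 0.44), *Azin1* at 0.28 (0.23 to 0.33) and *Sms* at 0.096 (0.064 to 0.13). Among the synthetic enzymes *Odc1*, *Srm* and *Amd1* were below 0, and *Sms* was above 0 but below the median of all genes. Scaling by the median ratio of the libraries turned *Sms* to -0.064, and 5 members were then lower past the limit and 0 higher, where 12.4% of all genes were lower and 18.2% higher.

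Of the wider list, 22 genes had at least 10 UMIs in the KO comparison, and 3 were higher and 1 lower past the same limit, with a median of 0.031, against 30.1% and 6.30% of all genes and their median of 0.14. The higher ones were *Atp13a3*, a polyamine transporter, from 17.3 to 23.6 CPM with a log2 ratio of 0.45, *Atp13a2*, from 9.39 to 12.5 CPM with 0.41, and *Eif5a2*, a second gene for the hypusinated factor, from 1.97 to 2.68 CPM with 0.44. The lower one was *Oaz3*, on 8 and 2 UMIs. *Myc* and *Eif5a*, which like *Odc1* were higher with stimulation, had log2 ratios of -0.26 (-0.29 to -0.24) and -0.18 (-0.19 to -0.17) in the KO comparison.

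The KO library held more shallow cells than the stimulated WT library, so ratios were also taken within ranges of UMIs per cell. Cells of 1400 to 3000 UMIs were 39.6% of the KO cells and 17.4% of the stimulated WT cells, and cells of 12000 to 24000 UMIs were 23.2% and 46.3%. In the shallow range the median mitochondrial share was 5.74% and 10.6%, against 1.02% and 1.20% in the deep one. For *Odc1* the direction differed between ranges. It was at 212 CPM in WT and 229 CPM in KO cells of 6000 to 12000 UMIs, a log2 ratio of 0.11 (0.062 to 0.17). In cells of 12000 to 24000 UMIs it was at 360 and 315 CPM, a ratio of -0.19 (-0.22 to -0.16), and in cells of at least 24000 UMIs the ratio was -0.22 (-0.30 to -0.14). The lower *Odc1* level of the KO library was therefore seen in cells above 12000 UMIs and not below. Depth was not fully matched at 12000 to 24000 UMIs, with medians of 15611 in WT and 14838 in KO. In the deepest range the medians were 27098 and 27109.

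*Srm* was nearly equal in the libraries at like depth, with 371 and 377 CPM in cells of 6000 to 12000 UMIs and 533 and 517 CPM in cells of 12000 to 24000 UMIs, which are log2 ratios of 0.021 (-0.019 to 0.061) and -0.043 (-0.065 to -0.020). In cells of 1400 to 3000 UMIs it was higher in KO, at 0.42 (0.30 to 0.54). The KO ratio of *Sat1* was below 0 in all 5 ranges, from -0.31 to -0.13, each with an interval below 0. *Sms* was above 0 in 4 ranges, at 0.17 to 0.29, and at -0.14 (-0.26 to -0.023) in the deepest. The ratio of *Azin1* was 0.78 (0.49 to 1.09) in cells of 3000 to 6000 UMIs and 0.059 (-0.0082 to 0.13) in cells of 12000 to 24000 UMIs. The range of 3000 to 6000 UMIs held 339 WT and 1602 KO cells and was not matched. Its medians were 4198 and 3555 UMIs, and its median mitochondrial shares 2.10% and 4.25%. *Oaz1* was at 0.67 (0.60 to 0.74) in the shallowest range and between -0.14 and 0.078 in the others. The part of depth and of cell quality in the ratios of the whole libraries was not tested.

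**Figure D3:**
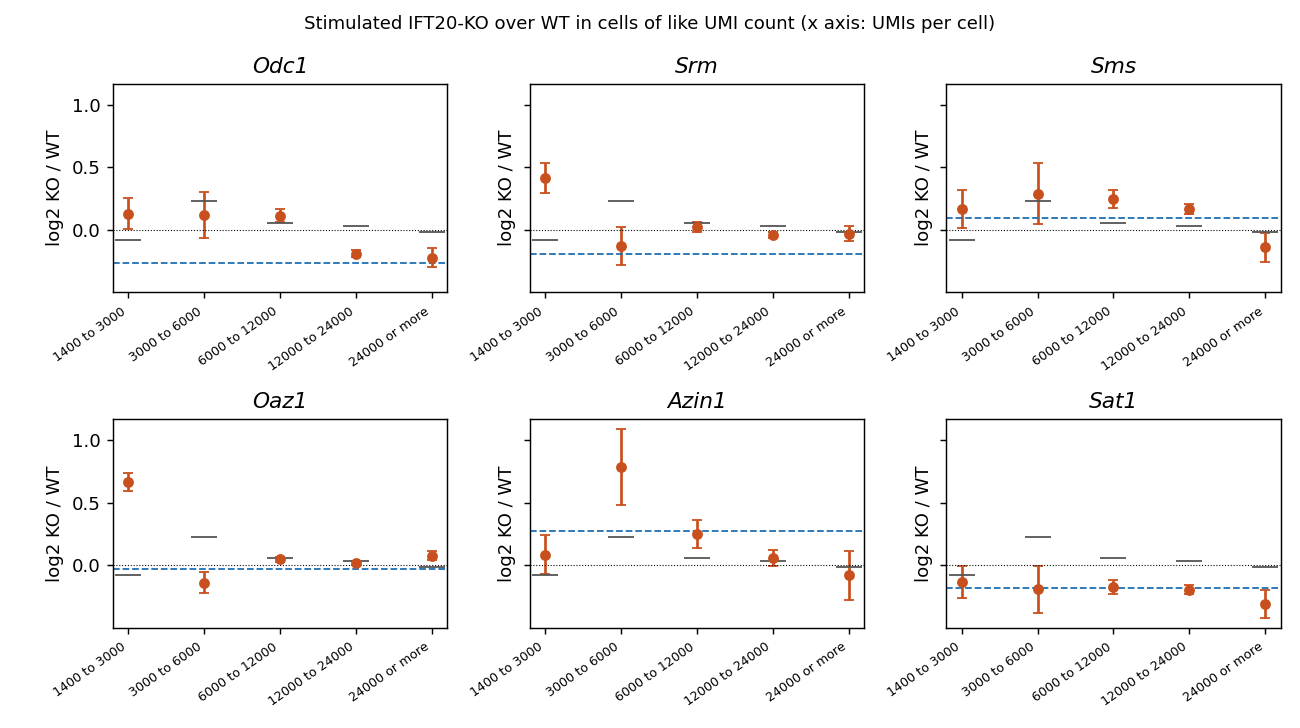
Log2 ratio of CPM, stimulated IFT20-KO over stimulated WT, in cells of like UMI count (x axis, UMIs per cell) for 6 genes; bars are 95% counting intervals, grey dashes are the median of all genes in that range and the blue dashed line is the ratio of the whole libraries. *Sat1* is below 0 in all 5 ranges, *Odc1* is below 0 only above 12000 UMIs, and *Srm* lies within 0.043 of 0 in the 3 deepest ranges.

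Within each library the level of the synthetic enzymes also varied with the UMI count of the cell. Stimulated WT cells were ranked by UMI count and cut into quintiles, with median depths from 1754 to 20779.5 UMIs. From the shallowest to the deepest quintile, *Odc1* was at 190, 196, 269, 351 and 394 CPM and *Srm* at 203, 330, 432, 516 and 598 CPM. Because CPM is here a share of all UMIs of a quintile, both genes took a larger share of the UMIs in the deeper quintiles. In IFT20-KO the same quintiles gave 214, 210, 198, 255 and 322 CPM of *Odc1* at median depths from 2029 to 15864 UMIs. Without stimulation the levels were lower and also highest in the deepest quintile, with *Odc1* at 21.9, 15.4, 20.7, 22.2 and 28.6 CPM and *Srm* at 62.8 CPM in the shallowest and 94.9 CPM in the deepest. *Sat1* had no such gradient after stimulation, at 188 to 199 CPM over the quintiles of stimulated WT and 161 to 186 CPM over those of IFT20-KO.

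The shallow cells differed from the rest in other members. They also differed in quality after stimulation. The median mitochondrial share at 1400 to 3000 UMIs was 10.6% in stimulated WT and 5.74% in IFT20-KO, against 1.20% and 1.02% at 12000 to 24000 UMIs. In unstimulated WT it was 2.64% and 2.32%. The part of cell quality in the order of the quintiles was not tested. *Azin1* was at 117 CPM in the shallowest quintile of stimulated WT and at 51.2 to 60.3 CPM in the other 4, and at 111 and 145 CPM in the 2 shallowest quintiles of IFT20-KO against 55.8 and 60.7 CPM in the 2 deepest. *Oaz1* had the opposite order, at 553 CPM in the shallowest quintile of stimulated WT and 1272 to 1358 CPM in the others. It was at 888 and 785 CPM in the 2 shallowest quintiles of IFT20-KO, and at 1380 and 1367 CPM in the 2 deepest. The shallowest quintile of unstimulated WT, with a median of 1407 UMIs, showed the same order for both genes, at 58.0 CPM of *Azin1* against 28.3 to 32.6 CPM, and 975 CPM of *Oaz1* against 1132 to 1203 CPM.

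**Figure D4:**
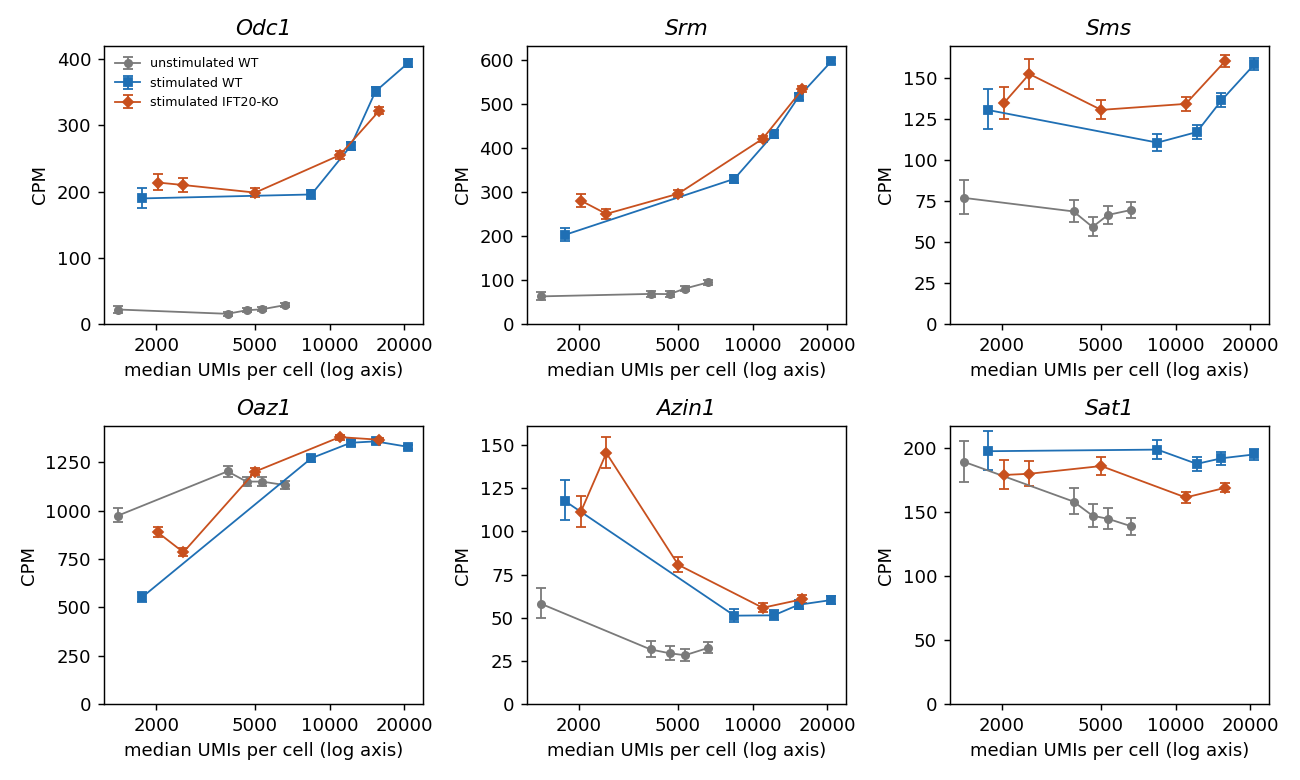
Level of 6 genes (CPM) in quintiles of the cells of each library ranked by UMI count, against the median UMIs per cell of the quintile (log axis); bars are 95% counting intervals. *Odc1* and *Srm* are higher in the deeper quintiles of both stimulated libraries, up to 394 and 598 CPM in WT, *Azin1* is highest and *Oaz1* lowest among shallow cells, and *Sat1* is nearly level after stimulation.

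Cells were then set apart by their UMIs of a list of naïve genes, at equal depth. Each cell of at least 1400 UMIs was thinned to 1400 UMIs. These cells were grouped by their UMIs of 6 naïve genes (*Il7r*, *Klf2*, *S1pr1*, *Ccr7*, *Tcf7*, *Lef1*), which are ranges of a score and not cell types. Over the whole stimulated libraries *Ccr7* gave most of the list, at 532 of a summed 943 CPM in WT and 681 of 1101 CPM in IFT20-KO. *Il7r* was lowest, at 5.45 and 5.94 CPM, so the ranges weigh *Ccr7* most. Among stimulated WT cells that had at least 6000 UMIs before thinning, *Odc1* was at 363 CPM in the 2903 cells with 0 naïve UMIs, 299 CPM with 1 to 2, 216 CPM with 3 to 5 and 171 CPM in the 226 cells with 6 or more. The level in the last range was lower than in the first by a log2 ratio of -1.09 (-1.51 to -0.70). In IFT20-KO the same ranges gave 300.2, 271, 197 and 163 CPM, a ratio of -0.88 (-1.39 to -0.41). *Srm* had the same order, at 559.8, 484, 352 and 247 CPM in WT and 495, 443, 336 and 247 CPM in IFT20-KO. *Sat1* did not, at 195, 200.02, 177 and 202 CPM in WT. Over all thinned cells *Odc1* was at 349.7, 284, 198 and 156 CPM in WT and 281, 243, 197 and 207 CPM in IFT20-KO. Cells with more naïve UMIs were still somewhat shallower before thinning, with medians of 14698 and 11452 UMIs in the first and last range of WT and 12476 and 9228 UMIs in those of IFT20-KO.

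**Figure D5:**
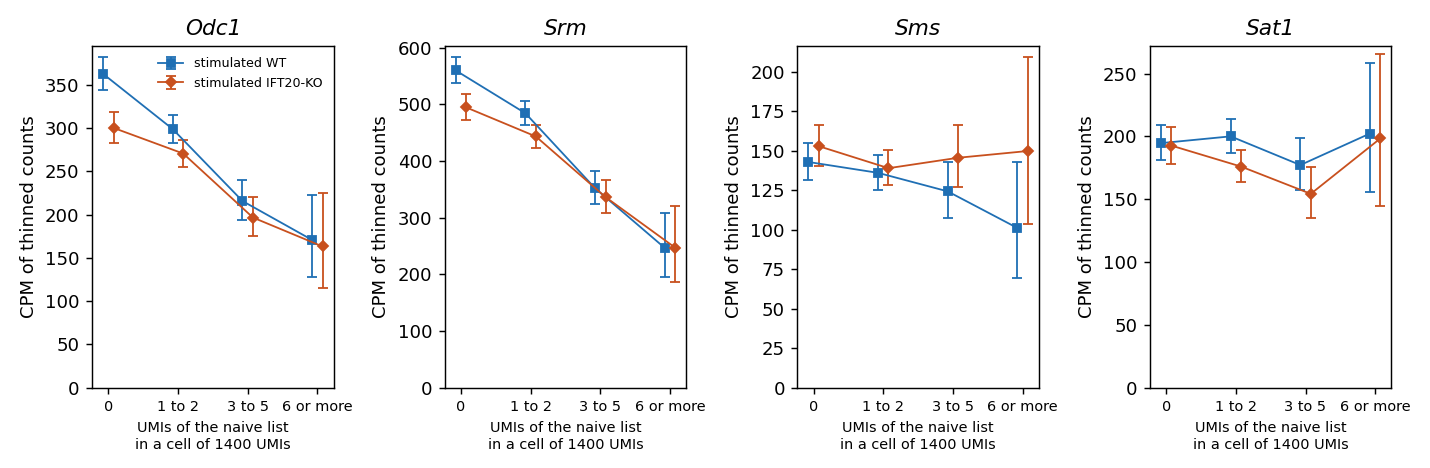
Level of 4 genes (CPM of counts thinned to 1400 UMIs per cell) against the number of UMIs of the 6 naïve genes in the thinned cell, for stimulated cells with at least 6000 UMIs before thinning; bars are 95% counting intervals. *Odc1* and *Srm* are lowest in cells with 6 or more naïve UMIs, at 171 and 247 CPM in WT, and *Sat1* shows no such order.

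Among the deeper stimulated WT cells the activation genes ordered *Srm* in the reverse way. In stimulated WT cells of at least 6000 UMIs, *Srm* was at 406 CPM with 0 UMIs of *Cd69*, *Il2ra*, *Il2*, *Tnfrsf4*, *Tnfrsf9*, *Irf4* and *Irf8*, and at 689 CPM with 6 or more, a log2 ratio of 0.76 (0.56 to 0.96). For *Odc1* these were 274 and 352 CPM, a ratio of 0.36 (0.076 to 0.63), and for *Dhps* 58.3 and 108 CPM, a ratio of 0.89 (0.34 to 1.40). Over all thinned cells *Srm* had no such order, at 381, 440, 460 and 374 CPM over the ranges in WT and 350, 358, 347 and 321 CPM in IFT20-KO. The 714 WT and 824 IFT20-KO cells with 6 or more activation UMIs had medians of 2619 and 2713 UMIs before thinning. Most of them were therefore below the cut at 6000 UMIs. Beyond the cut at 6000 UMIs, the activation ranges were not matched for depth before thinning. *Srm* also varied with depth, from 203 CPM in the shallowest to 598 CPM in the deepest quintile of stimulated WT. Cells of at least 6000 UMIs were also divided by *Myc*. *Srm* was at 456 CPM in cells with 0 *Myc* UMIs and 567 CPM in cells with 1 or more, a log2 ratio of 0.31 (0.23 to 0.40), and *Odc1* was at 305 and 313 CPM, a ratio of 0.036 (-0.077 to 0.15). In IFT20-KO *Srm* was at 422 and 497 CPM and *Odc1* at 268 and 266 CPM. Without the cut at 6000 UMIs, *Odc1* was at 279 and 289 CPM in WT and 238 and 243 CPM in IFT20-KO. Those WT values came from 7055 cells with 0 *Myc* UMIs and 2427 cells with 1 or more. At such sparse counts a cell with 0 *Myc* UMIs can still express *Myc*, so contrasts by *Myc* may be narrowed. In cells of at least 6000 UMIs the S-phase list gave little order for *Odc1*. It was at 301, 308, 297 and 355 CPM over the ranges in WT and 263, 267, 269 and 264 CPM in IFT20-KO. Without the cut these were 285, 278, 274 and 327 CPM in WT and 246, 244, 239 and 219 CPM in IFT20-KO. In single thinned cells the members were only weakly correlated, with a Pearson r of 0.10 between *Odc1* and *Srm* over 9482 stimulated WT cells, which at such sparse counts says little.

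To place the pattern of the entry enzyme and of the breakdown enzyme among other genes, their log2 levels were correlated over the 15 sums formed by 3 libraries and 5 quintiles. The sums share libraries and depth, so these coefficients are descriptions. Of 3434 genes, those most like *Odc1* were *Dkc1* (r = 0.998), *Pus1* and *Dnajc2* (0.997 each), *Naa20* and *Adsl* (0.995 each). *Dkc1* and *Pus1* encode pseudouridine synthases, and *Adsl* an enzyme of purine synthesis. For *Sat1* the highest were *Atp6v0b* (0.904), *Ccdc59* (0.876), *Dnajb6* (0.866), *Desi2* (0.860) and *Ube2d3* (0.855).

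The 10 genes together took 1595 CPM in unstimulated WT, 2631 CPM in stimulated WT and 2480 CPM in IFT20-KO. Of these, *Oaz1* alone took 1139, 1311 and 1282 CPM. Stimulated WT cells held more UMIs in all, so in UMIs per cell without scaling all 10 genes were higher than in unstimulated cells, and in IFT20-KO all 10 were lower than in stimulated WT. Cell size and capture efficiency cannot be told apart in those totals. Most genes moved the same way on that scale, with all-gene medians of the log2 ratio of 1.26 for stimulation and -0.49 for KO. *Odc1* was at 0.105, 3.85 and 2.07 UMIs per cell, and *Amd1*, lower in CPM with stimulation, was at 0.122, 0.271 and 0.147.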

How the data were processed

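The authors aligned the reads and deposited, for each library, a table of UMI counts per gene and cell barcode without normalization. The submitters' processing notes name Cell Ranger and mm10, and the file headers give Cell Ranger 3.1.0. The labels name a 5′ kit and the methods a 3′ kit, so the end of the transcript that was read is uncertain. Counts were summed per library over the filtered cells and divided by all UMIs. Intervals are exact Poisson for CPM, exact binomial for ratios and Clopper-Pearson for shares. With 0 UMIs, 3 counts were taken as the floor. Limits were log2 ratios of 1 for stimulation and 0.322 for KO. No doublet caller was run. The calculation was tested on simulated data. Alternatives tried were no cell filter, a stricter one (over 1000 genes, mitochondrial UMIs below 10%), scaling by the median ratio, equal weight for each cell, unscaled UMIs per cell, a total that leaves out ribosomal and mitochondrial genes, thinning to 1400 UMIs, cells of 4000 to 12000 UMIs, a gene minimum of 200 UMIs and, added after the values were seen, cells of at least 6000 UMIs, also for the ranges of the naïve, activation, S-phase and *Myc* scores. All 10 genes and the pathway list may be named, and for *Odc1* and *Sat1* the 5 genes most like each among those of at least 50 CPM. The genes and lists were chosen with earlier results of these data known, and 1 gene each of the B cell and naïve lists was left out and is not reported here. Python 3.11.15, numpy 2.4.6, scipy 1.17.1, pandas 2.3.3 and matplotlib 3.10.9 were used.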

Additional observations from a re-analysis of the deposited data

How the results depend on the processing

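The stimulation ratios of *Odc1* (3.14 to 5.19) and *Srm* (2.18 to 4.001) stayed past 2-fold under all 9 alternatives, and within ranges of UMIs per cell they were as low as 2.83 and 1.51. For stimulation, UMIs per cell put 10 members past the limit with a median of 1.66 (58.5% of all genes, median 1.26), thinning put *Azin1* past it at 1.10, median-ratio scaling gave a median of 0.44 and the total without ribosomal and mitochondrial genes 0.21. For KO over WT, the number lower past the limit was 5 under median-ratio scaling (median -0.27; 12.4% of all genes) and 9 in UMIs per cell (median -0.74; 68.5% of all genes, median -0.49). *Sms* was below 0 in both, at -0.064 and -0.53. Under per-cell fractions 1 was higher past the limit (*Azin1*) and 1 lower (*Dohh*), where 30.8% and 8.10% of all genes were. Under thinning 1 was higher (*Azin1*) and 1 lower (*Amd1*), where 33.9% and 11.9% of all genes were. *Oaz2* alone was higher past it over all barcodes (28.6% of all genes), the stricter filter (34.6%) and cells of at least 6000 UMIs (14.7%). The last was the alternative added later. In cells of 4000 to 12000 UMIs the median reversed to 0.043 (0.074 for all genes), with *Odc1*, *Srm*, *Oaz1* and *Dhps* above 0. The cause was not tested. The KO ratios of *Amd1*, *Sat1* and *Dohh* were below 0 under all 9. With a gene minimum of 200 UMIs, 17.6% of all genes were higher and 18.9% lower with stimulation, and 25.3% and 2.52% in KO.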
